A study of Mus musculus with 3 samples.

Results

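The genes described here are the integrin chains and a set of adhesion and integrin-activation genes of mouse T lymphocytes kept with LZ-8 for 10 h. They were taken by symbol from the table of counts: every row named Itga or Itgb followed by a chain letter or number, and 14 further genes fixed by name. This gave 40 of 44788 rows, of which 18 encode alpha chains, 8 beta chains, 4 counter-receptors, 3 other adhesion receptors and 7 proteins that switch integrins on from inside the cell. The cells were T lymphocytes drawn with CD90.2 beads from the spleens of female BALB/c mice 6 to 8 weeks of age, and the medium was RPMI 1640 plus 2% fetal bovine serum. LZ-8, which modulates immune cells, is made by Ganoderma lucidum, a fungus. Each of the 3 libraries had this same label, so the values are levels in cells with LZ-8, and what LZ-8 changed was not measured. Nothing in the labels tells separate mice or cultures apart, so SDs and p-values cover the spread of these libraries alone, and that spread may be technical.

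Integrins are surface receptors made of 1 alpha and 1 beta chain that bind matrix proteins or receptors on other cells. On resting T cells they are held in a bent, weakly binding state. Signals from the T cell receptor or chemokine receptors activate the small GTPase Rap1, which brings talin and kindlin to the tail of the beta chain and opens the receptor. The integrin best known in T cells is LFA-1, the pair of Itgal and Itgb2, which binds ICAM proteins on antigen-presenting cells and vessel walls.

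Both chains of LFA-1 and the activators Tln1 and Rap1b had the highest counts of the 40. Itgal, the alpha chain of LFA-1, had 736, 780 and 838 CPM (counts scaled for the depth of each library) in replicates 1, 2 and 3, and Tln1, which encodes talin, had 709, 717 and 796 CPM. Itgb2, the beta chain of LFA-1, had 275, 269 and 272 CPM. In all, 12 of the 40 genes averaged 100 CPM or more, 21 averaged 10 CPM or more and 27 averaged 1 CPM or more. Over all 23131 rows with a count, 10.97% averaged 100 CPM or more, 39.8% averaged 10 CPM or more and 58.6% averaged 1 CPM or more. The other 13 genes were under 1 CPM, with at most 14 counts in any library. In RNA of pooled cells, fewer cells that express a gene and less RNA per cell cannot be told apart.

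**Figure D1:**
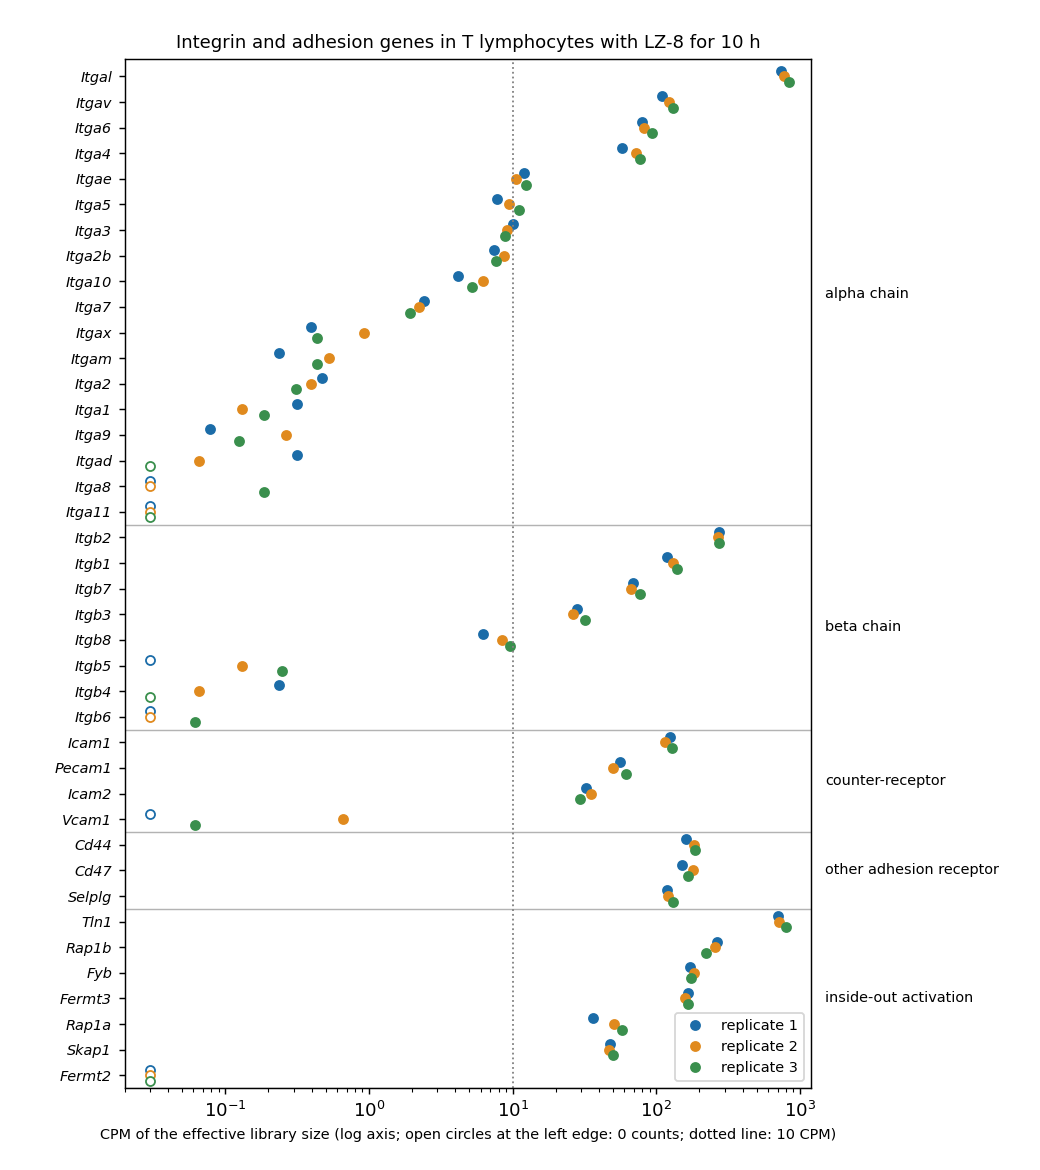
Level of each of the 40 genes in each library, in CPM on a log axis, grouped by role; points are libraries and open circles mark 0 counts. Itgal and Tln1 lie furthest to the right, and 13 genes lie below 1 CPM.

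The libraries held 13239482, 15007652 and 15683820 counts in replicates 1, 2 and 3. A level of 3 counts, taken as the floor of detection, was 0.236, 0.198 and 0.186 CPM, which covers counting error only. All 12 genes of the T cell marker list averaged 100 CPM or more, with a summed level of 4705, 4487 and 4499 CPM in replicates 1, 2 and 3. The summed level was 15.2 to 16.9 CPM for 7 B cell markers, 19.7 to 22.6 CPM for 10 macrophage and monocyte markers, and 10.1 to 11.8 CPM for 8 dendritic cell markers. It was 15.8 to 18.3 CPM for 7 NK cell markers and 1.86 to 3.38 CPM for 7 erythroid markers. It was 0.186 to 1.18 CPM for 7 neutrophil markers, 0.0659 to 0.236 CPM for 8 platelet markers, and 0.198 to 0.393 CPM for 10 markers of endothelium and stroma.

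Promoters are shown for 3 genes of unlike level: Tln1 and Icam1, which were abundant, and Itgam, which was near the floor. Each runs 5′ to 3′ from 250 bases before to 50 bases after the start of the gene in RefSeq (GRCm38.p6). Capitals mark matches, on either strand, to any of 3 motifs that were chosen after the levels had been seen. The core of ETS factor sites was searched as CGGAAG. The box bound by the basal transcription machinery was searched as TATAAA. A loose motif like those of NF-kappaB was searched as GGNNNTTCC.

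Tln1, chr4:43562534-43562833, minus strand: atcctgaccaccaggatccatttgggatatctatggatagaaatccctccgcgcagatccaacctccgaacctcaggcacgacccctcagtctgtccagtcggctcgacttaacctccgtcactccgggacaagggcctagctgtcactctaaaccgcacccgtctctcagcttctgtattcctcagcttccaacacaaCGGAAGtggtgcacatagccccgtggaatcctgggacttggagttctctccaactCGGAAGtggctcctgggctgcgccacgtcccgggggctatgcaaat

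Icam1, chr9:21015690-21015989, plus strand: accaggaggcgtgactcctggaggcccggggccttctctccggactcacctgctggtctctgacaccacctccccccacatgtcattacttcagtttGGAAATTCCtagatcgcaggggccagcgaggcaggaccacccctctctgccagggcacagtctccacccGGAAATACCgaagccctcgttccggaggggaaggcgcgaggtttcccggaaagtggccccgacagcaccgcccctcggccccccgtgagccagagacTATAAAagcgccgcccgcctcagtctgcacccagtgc

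Itgam, chr7:128062390-128062689, plus strand: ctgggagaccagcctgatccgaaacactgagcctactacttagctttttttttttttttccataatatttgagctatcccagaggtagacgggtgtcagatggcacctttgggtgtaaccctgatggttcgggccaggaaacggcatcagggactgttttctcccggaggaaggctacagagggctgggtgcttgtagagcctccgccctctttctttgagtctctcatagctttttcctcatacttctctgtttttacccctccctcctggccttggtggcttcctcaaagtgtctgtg

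The Tln1 window held the ETS core at 2 places. By the RefSeq start, 1 began 51 bases before the gene and the other 5 bases into it. By the GENCODE start, both began inside the gene, 57 and 112 bases after the start. The Icam1 window held 1 TATA box and 2 kappaB-like matches. There was no overlap between motifs. The TATA box of Icam1 began 14 bases into the gene by the RefSeq start, and 32 bases before the GENCODE start, so the annotations place the start differently. The Itgam window held none of these letters. Promoters were found for 26 of the 40 genes, 29 windows in all, and Itgal and Itgb2 were not among them. The ETS core was in 6 of the 29, against 16.9% of all 32851 promoters. The genes were Tln1, Rap1b, Itgav, Cd47, counted with both of its windows, and Itga3. The TATA box was in 1 and the kappaB-like motif in 4 of the 29 windows, against 13.6% and 18.5% of all promoters. A match is a description of the letters, not a site.

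Among the alpha chains, Itgal stood apart from all others. Levels of different genes are compared per kilobase of exon (all exons of the gene joined), because a longer transcript gives more reads. On that scale Itgal was at 119 ± 7.74 CPM per kilobase (mean ± SD here and below, n = 3 libraries), higher than 97.6% of all genes with a count and a length. It made up 77.5 ± 0.303% of the summed per-kilobase level of the 18 alpha chains, 73.1 ± 0.296% with the longest transcript as length and 68.2 ± 0.590% with coding length. Itgav, the alpha chain of receptors for vitronectin and for latent TGF-beta, was next, at 11.3 ± 0.937 CPM per kilobase and 7.30 ± 0.166% of the sum, though below Itga6 with the longest transcript as length (8.35 ± 0.191% for Itgav, 9.59 ± 0.284% for Itga6). Its levels were 110, 123 and 130 CPM in replicates 1, 2 and 3.

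Chains of the laminin and fibronectin receptors followed. Itga6, the alpha chain of laminin receptors, had 80.0, 81.8 and 93.2 CPM in replicates 1, 2 and 3. Itga4, the alpha chain of VLA-4, which binds VCAM-1 and fibronectin, had 57.7, 71.9 and 77.7 CPM, and replicate 1 was the lowest of the 3 for both genes. Per kilobase, Itga6 was at 9.42 ± 0.791 and Itga4 at 4.94 ± 0.739 CPM, below Itgav. Itgae, the alpha chain of the receptor for E-cadherin known as CD103, had 12.02, 10.6 and 12.4 CPM. Itga5, the alpha chain of the classical fibronectin receptor, had 7.78, 9.43 and 11.03 CPM.

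Itga3, Itga2b, Itga10 and Itga7 had means of 9.37, 7.90, 5.21 and 2.20 CPM. Itga2b, the alpha chain of the fibrinogen receptor of platelets, had 7.38, 8.71 and 7.62 CPM in replicates 1, 2 and 3, highest in replicate 2. Of the 8 platelet markers, 6 had 0 counts in every library, among them Pf4, Ppbp and Gp9, so the defining markers of platelets were at or near 0. Itga10 shares 33.5% of its exonic bases with the annotated gene Gm42957, so its level is uncertain. The counts had no row named Gm42957.

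**Figure D2:**
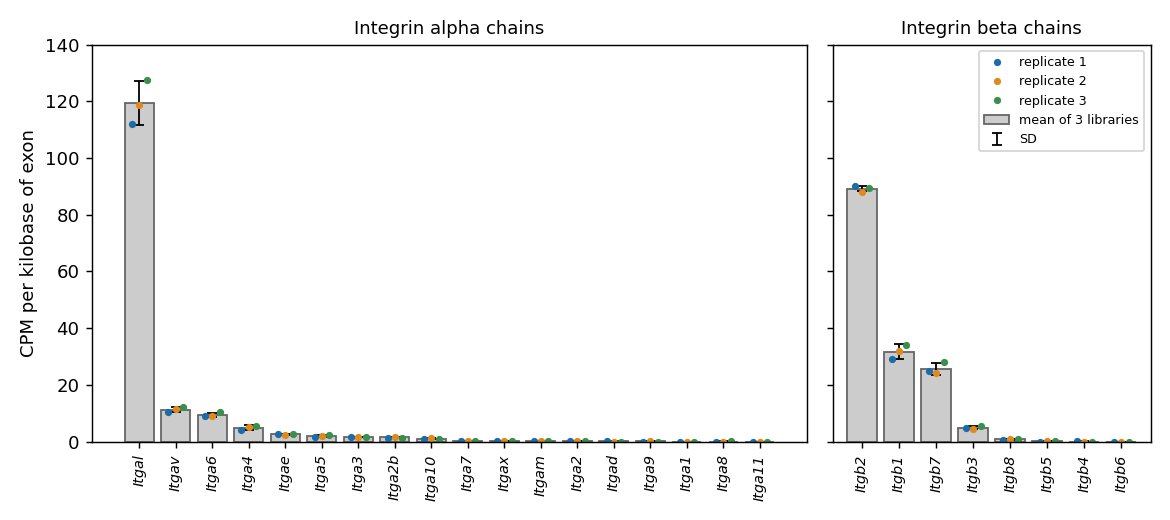
Level of each integrin alpha chain (left) and beta chain (right) in CPM per kilobase of exon; bars are the mean of 3 libraries, whiskers the SD and points the libraries. Itgal at 119 and Itgb2 at 89.2 CPM per kilobase exceed every other chain.

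The alpha chains that pair with Itgb2 lie together on chromosome 7 and differed widely in level. Itgal lies from 127296260 to 127335138 (GRCm38, whole gene bounds of GENCODE, here and below). Itgam, Itgax and Itgad follow 728 kb further on, from 128062640 to 128118491, from 128129547 to 128150657 and from 128154376 to 128223816, all on the plus strand. Itgam, the alpha chain of the complement receptor Mac-1 of myeloid cells, had 3, 8 and 7 counts in replicates 1, 2 and 3. Itgax, the dendritic cell chain CD11c, had 5, 14 and 7 counts, and Itgad 4, 1 and 0. In the same libraries Itgal had 9372, 11829 and 13521 counts. Of the macrophage markers, Csf1r, C1qa and Fcgr1 had 0 counts in every library, and of the dendritic cell markers Clec9a, Siglech, Cd209a and Clec10a did. The most abundant of these lists were Mpeg1 at 9.20 ± 1.44 CPM and Zbtb46 at 9.90 ± 0.888 CPM. Their part in the counts of Itgam and Itgax was not tested. The gene Gm49368 covers 68.7% of the exonic bases of Itgam on the same strand, so the Itgam count is uncertain. The counts had no row named Gm49368.

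The remaining alpha chains were near or below the floor of detection. Itga1 and Itga2, the alpha chains of collagen receptors, lie 20.995 kb apart on chromosome 13 and had 2 to 4 and 5 to 6 counts per library. Itga9 had 1 to 4 counts and Itga8 had 0, 0 and 3. Itga11, another collagen receptor chain, had 0 counts in every library, which allows a level of up to 0.186 to 0.236 CPM.

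Among the beta chains, Itgb2 was the highest, followed by Itgb1 and Itgb7. Itgb2 lies on chromosome 10 from 77530252 to 77565708 and was at 89.2 ± 0.978 CPM per kilobase, 58.6 ± 1.90% of the summed per-kilobase level of the 8 beta chains and 54.3 ± 2.05% with coding length. Itgb1, the shared partner of most matrix-binding alpha chains, had 119, 130 and 140 CPM in replicates 1, 2 and 3, or 31.7 ± 2.55 CPM per kilobase and 20.8 ± 1.17% of the sum. Itgb7, the partner of Itga4 in gut homing and of Itgae, had 68.6, 67.1 and 77.3 CPM, or 25.6 ± 1.99 CPM per kilobase and 16.8 ± 0.778% of the sum. Both were lower than Itgb2 in every library.

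Itgb3, the partner of Itgav and Itga2b, had 28.3, 26.5 and 32.1 CPM in replicates 1, 2 and 3. Itgb8, whose dimer with Itgav releases active TGF-beta, had 6.21, 8.51 and 9.66 CPM. The epithelial and matrix chains Itgb4, Itgb5 and Itgb6 had at most 4 counts in any library.

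Partner chains were not equally abundant, and the sizes below depended on the length used. Beside all exons, the longest transcript and the coding part of each gene were tried as lengths. These moved 9 of 20 ratios by over 1.5 times and turned none round. Within each library, Itgal was 1.34-fold higher than Itgb2 per kilobase, with a log2 ratio of 0.42 ± 0.10. Itga4 was 6.45-fold lower than Itgb1 (log2 ratio -2.69 ± 0.11) and 5.21-fold lower than Itgb7 (-2.38 ± 0.18). With coding length the log2 ratios were -1.29 and -0.40. Itgae was 10.1-fold lower than Itgb7, with a log2 ratio of -3.33 ± 0.08. Without length scaling the log2 ratio of Itga4 over Itgb7 was -0.047 ± 0.18, and Itga4 had the higher CPM in 2 of 3 libraries. Itga6 was 3.37-fold lower and Itga5 16.8-fold lower than Itgb1, with log2 ratios of -1.75 ± 0.05 and -4.07 ± 0.14. The ratio of Itga6 was -0.78 with the longest transcript and -1.06 with coding length. Itgav was 2.30-fold higher than Itgb3 (1.201 ± 0.13) and 15.6-fold higher than Itgb8 (3.96 ± 0.21). Itga2b was 3.38-fold lower than Itgb3, with a log2 ratio of -1.76 ± 0.24, or -1.12 with the longest transcript.

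The same ratios between alpha chains and between beta chains compared the RNA of single chains, not paired receptors or protein. Itgal was 24.3-fold higher than Itga4 (4.60 ± 0.14), or 3.30 on the log2 scale with coding length. Itgb1 was 2.82-fold lower than Itgb2 (-1.49 ± 0.13) and 1.24-fold higher than Itgb7 (0.31 ± 0.08). Ratios were fixed for 24 pairs and computed for the 20 in which neither gene had 0 counts in a library. In 19 of the 20 the sign was the same in all 3 libraries, and each of these had p = 0.25 in a two-sided exact sign-flip test, the smallest that 3 libraries can give (Benjamini-Hochberg adjusted p = 0.263). The test therefore cannot reach 0.05 here, and the size of each ratio is to be read against its SD.

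**Figure D3:**
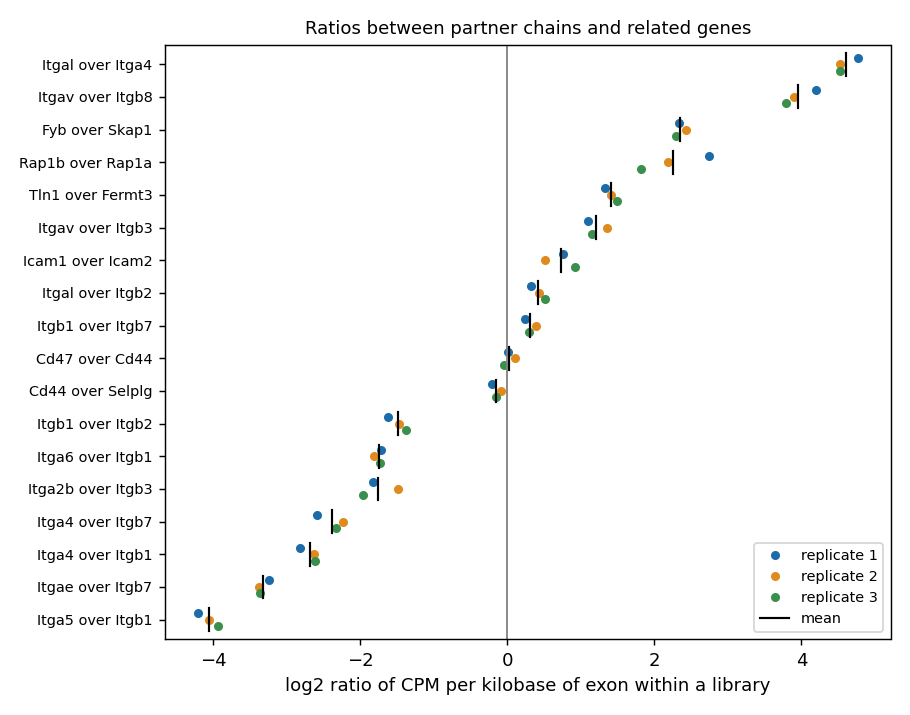
Log2 ratio of CPM per kilobase of exon within each library for 18 fixed pairs; points are libraries and black ticks their mean, and pairs with Itgam or Itgax are left out for their low counts. Pairs of Cd44, Cd47 and Selplg lie closest to 0, and Itgal over Itga4 lies furthest to the right.

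Of the counter-receptors, which integrins bind on other cells, Icam1 was the most abundant. Icam1, the inducible ligand of LFA-1, had 125, 115 and 129 CPM in replicates 1, 2 and 3. Icam2, a more constant ligand of LFA-1, had 32.4, 35.4 and 29.7 CPM. Per kilobase, Icam1 was 1.66-fold higher than Icam2, with a log2 ratio of 0.73 ± 0.21 and the same sign in all 3 libraries. The gene Gm47079, which runs antisense to Icam1, shares 11.7% of its exonic bases, and without a known strand rule the reads cannot be told apart there. Vcam1, the ligand of VLA-4 on activated endothelium, had 0, 10 and 1 counts, so 1 library held nearly all of them.

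Pecam1, an adhesion receptor of endothelium, platelets and some T cells, had 55.6, 50.3 and 61.8 CPM in replicates 1, 2 and 3. It lies 266 kb from Icam2 on chromosome 11. Endothelial markers stayed at or near 0 beside it: Cdh5 had 0, 1 and 0 counts, Kdr 0, 1 and 2, Tek 0, 0 and 1, and Emcn 0 in every library.

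Cd44, Cd47 and Selplg lay close together per kilobase of exon, though not with every length. Cd44, the receptor for hyaluronan and a marker of activated and memory T cells, had 162, 182 and 186 CPM in replicates 1, 2 and 3. Cd47, the integrin-associated protein that also signals to phagocytes through SIRP alpha, had 151, 181 and 167 CPM. Selplg, the selectin ligand PSGL-1, had 118, 122 and 130 CPM. Per kilobase, Cd44 was at 26.1 ± 1.90, Cd47 at 26.5 ± 2.37 and Selplg at 28.9 ± 1.41 CPM. The log2 ratio of Cd47 over Cd44 was 0.022 ± 0.07, with 2 of 3 libraries above 0 (p = 0.75 in the two-sided exact sign-flip test, adjusted p = 0.75), but 1.10 with coding length. The log2 ratio of Cd44 over Selplg was -0.15 ± 0.07, lower in all 3 libraries, and -0.76 with the longest transcript.

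The machinery that activates integrins from inside was led by Tln1 and Rap1b. Talin links the beta chain tail to actin, and Tln1 was at 75.6 ± 4.90 CPM per kilobase. Fermt3, the kindlin of blood cells, had 166, 159 and 167 CPM in replicates 1, 2 and 3, or 28.3 ± 0.777 CPM per kilobase, and Tln1 was 2.67-fold higher (log2 ratio 1.41 ± 0.08), or 0.69 on the log2 scale with the longest transcript and 0.24 with coding length. Fermt2, the kindlin of adherent tissue cells, had 0 counts in every library. Fyb, which encodes the adaptor ADAP that joins the T cell receptor to integrins, had 173, 184 and 176 CPM. Its partner Skap1 had 47.6, 47.2 and 49.8 CPM, and Fyb was 5.10-fold higher per kilobase (2.35 ± 0.07), or 1.53 on the log2 scale with the longest transcript and 0.67 with coding length. The pseudogene Gm7666, with a mean of 220 CPM, shares 231 bases of the exons of Fyb on the same strand, so some reads of Fyb may stand in that row.

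Rap1b exceeded Rap1a, the other gene for the GTPase Rap1, by an amount that depended on the library and on a pseudogene. Rap1b had 266, 258 and 224 CPM in replicates 1, 2 and 3, and Rap1a had 36.1, 51.1 and 57.4 CPM. Per kilobase Rap1b was 4.75-fold higher, with log2 ratios of 2.74, 2.19 and 1.82 in the 3 libraries. The processed pseudogene Gm9392 is 98.6% identical to Rap1a over 554 bases and had 29.3, 33.8 and 41.1 CPM, lowest in replicate 1 and highest in replicate 3 as Rap1a was. With its counts added to Rap1a, the ratio was 2.75-fold (log2 1.46 ± 0.42), so the level of Rap1a is uncertain.

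The 21 genes that averaged 10 CPM or more were ordered by level per kilobase of exon. Itgal was above Itgb2 in every library. Itgb2, Rap1b and Tln1 came next, at 89.2, 86.4 and 75.6 CPM per kilobase, and neighbours among them overlapped between libraries. From Fyb at 32.9 to Itgb7 at 25.6 CPM per kilobase, 8 genes followed each other with overlapping ranges. Of the 20 neighbouring pairs in the whole order, 13 overlapped between libraries and 7 did not. The order held for this length alone. With coding length Rap1b was highest, at 451 CPM per kilobase, above Itgal at 218, Cd47 at 162 and Itgb2 at 118. With the longest transcript Itgal, Itgb2, Rap1b and Tln1 stayed the first 4, and Fyb was at 66.5 against Tln1 at 88.2 CPM per kilobase.

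The abundant genes differed little between libraries in size but often by more than counting noise. The chi-square test of the 3 counts, which compares libraries and not conditions, could be applied to 29 of the 40 genes, those expected to have at least 5 counts in every library. It found 18 of the 29 (62.1%) to differ at a Benjamini-Hochberg adjusted p under 0.05, against 42.8% of all 15392 genes tested. The background share depended on the level of the genes. With expected counts of 20 or more, the same 18 differed, of 27 tested, against 50.4% of all 12692 genes tested. Of these 18, 2 differed by 1.5-fold or more between libraries, Rap1a by 1.59-fold and Itgb8 by 1.56-fold, and none by 2-fold. Of the tested genes that did not pass, Itgax, Itgam and Itga10 had ratios of highest to lowest library of 2.35, 2.24 and 1.505, at low counts. The call of Rap1a was lost without replicate 1 (chi-square, adjusted p = 0.0639). That of Itgb8 was lost without replicate 1 (0.492), without replicate 3 (0.0960) and with the trends over length and GC content removed (0.347). The count was 7 of 30 tested, against 22.8% of all genes, without replicate 3. Without replicate 1 it was 11 of 31 tested, against 24.4%. Of these 11, 10 were among the 18, and the other was Vcam1, at 10 and 1 counts in replicates 2 and 3. The median coefficient of variation was 8.001% over the 21 genes that averaged 10 CPM or more and 8.67% over all 9204 such genes.

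Replicate 3 was the highest library for 15 of the 18, or 51.7% of those tested, against 19.1% of all genes. Replicate 1 was the lowest for 12, or 41.4% of those tested, against 19.2% of all genes. With plain library totals in place of TMM, 20 of 30 tested genes differed. Of the 30 tested, 16 differed with replicate 3 highest, against 26.4% of all genes tested. With TMM, Cd47 and Icam2 were highest in replicate 2 (6.90% of the 29 tested, against 5.76% of all genes). The 4 genes Icam1, Itgb3, Itgb7 and Pecam1 were lowest there (13.8% of the 29, against 5.13%). Icam2 and Rap1b were lowest in replicate 3 (6.90% of the 29, against 18.5% of all genes). The call of Icam2 (chi-square, adjusted p = 0.0447) was lost without replicate 2 (0.335), without replicate 3 (0.354) and with DESeq2 size factors (0.0547). It was also lost with no filter on low counts (0.0647) and with the length and GC trends removed (0.0663). It held without replicate 1 (0.0239), with plain totals (0.0478) and with expected counts of 20 or more (0.0387). Itgal differed by 1.14-fold and Tln1 by 1.12-fold (chi-square, adjusted p = 4.9e-20 and 6.1e-20), in both with replicate 1 lowest and replicate 3 highest, and the call of Tln1 was lost without replicate 3 (adjusted p = 0.648). Itga4 differed by 1.35-fold in the same order (adjusted p = 5.1e-09), but its call was lost without replicate 1 (adjusted p = 0.165) and with the trends over length and GC content removed (0.158). Rap1b was the one gene of the 18 that was highest in replicate 1 (3.45% of the 29 tested, against 17.9% of all genes). Rap1b differed by 1.19-fold (chi-square, adjusted p = 5.4e-13, but 0.382 without replicate 3). Itgb2 did not pass the test (adjusted p = 0.723), with 275 CPM at its highest and 269 CPM at its lowest.

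The same shift was read against transcript length. The median log2 ratio of replicate 1 over replicate 3 was -0.15 for the 21 genes and -0.05 for all 9203 genes that averaged 10 CPM or more and had a count in both libraries. It was -0.09 for 2544 coding genes with 4.08 to 6.78 kb of exon, the middle of the range of these 21. The median exonic length was 5.78 kb for the 21 genes and 4.82 kb for coding genes of the same level. With the trend of each library over length and GC content removed, 9 of the 29 genes differed, against 36.9% of all 14311 genes tested. These 9 were Itgal, Itga5, Itgb7, Icam1, Pecam1, Cd47, Tln1, Rap1a and Rap1b.

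**Figure D4:**
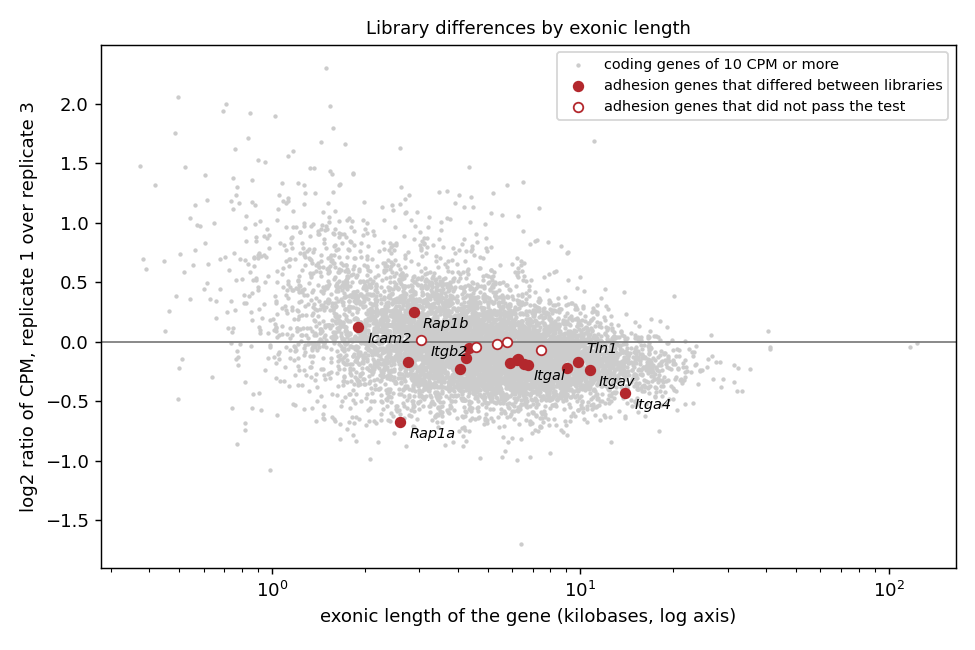
Log2 ratio of CPM in replicate 1 over replicate 3 against exonic length in kilobases (log axis), for coding genes of at least 10 CPM (grey) and the 21 adhesion genes at that level (red; filled where the libraries differed). Rap1a lies lowest of the 21 and Rap1b highest.

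Further genes of the pathway were read from fixed lists. Of 20 talin and integrin adaptors, 13 averaged 10 CPM or more, led by the actin crosslinkers Flna at 592 ± 13.4, Actn4 at 374 ± 20.04 and Actn1 at 331 ± 19.3 CPM. Of 18 genes around Rap1 activation, 15 did, led by the exchange factors Rapgef1 at 453 ± 53.5 and Rapgef6 at 360 ± 54.4 CPM and the kinase Stk4 at 329 ± 23.9 CPM. The median was 36.4 CPM over the adaptors and 93.2 CPM over the Rap1 genes, against 2.89 CPM over all rows with a count.

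Several receptors of the T cell surface were abundant, while nearly all matrix ligands were low. Of 28 other adhesion receptors in the table, 13 averaged 10 CPM or more, led by Cd6 at 887 ± 45.4, Cd5 at 651 ± 26.3 and the sialomucin Spn at 500 ± 22.3 CPM. Cd2, Cd5 and Cd6 of this list were also among the T cell markers. Of 8 tetraspanins, membrane organisers that associate with integrins, 6 averaged 10 CPM or more, led by Cd53 at 979 ± 41.6, Cd82 at 369 ± 19.8 and Cd37 at 104 ± 6.52 CPM. The list of 25 matrix ligands also held Has1, Has2 and Has3, which encode hyaluronan synthases, and Cdh1, which encodes E-cadherin. Of the 25, 2 averaged 10 CPM or more and 9 had 0 counts in every library. The highest were the laminin chains Lamc1 at 27.2 ± 0.802 and Lama5 at 10.5 ± 0.318 CPM, and Fn1, which encodes fibronectin, was at 2.27 ± 0.337 CPM.

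Between libraries, 5 of 14 tested adaptors and 11 of 17 Rap1 genes differed, against 42.8% of all genes. For the other receptors it was 12 of 20, for tetraspanins 5 of 7 and for the list of matrix ligands 0 of 4. Genes that differed with replicate 3 highest were 4 of 14 tested adaptors and 9 of 17 tested Rap1 genes. They were 6 of 20 tested other receptors and 0 of 7 tested tetraspanins, against 19.1% of all genes tested. Of the 7 tested tetraspanins, 4 differed with replicate 1 highest, against 17.9% of all genes tested.

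**Figure D5:**
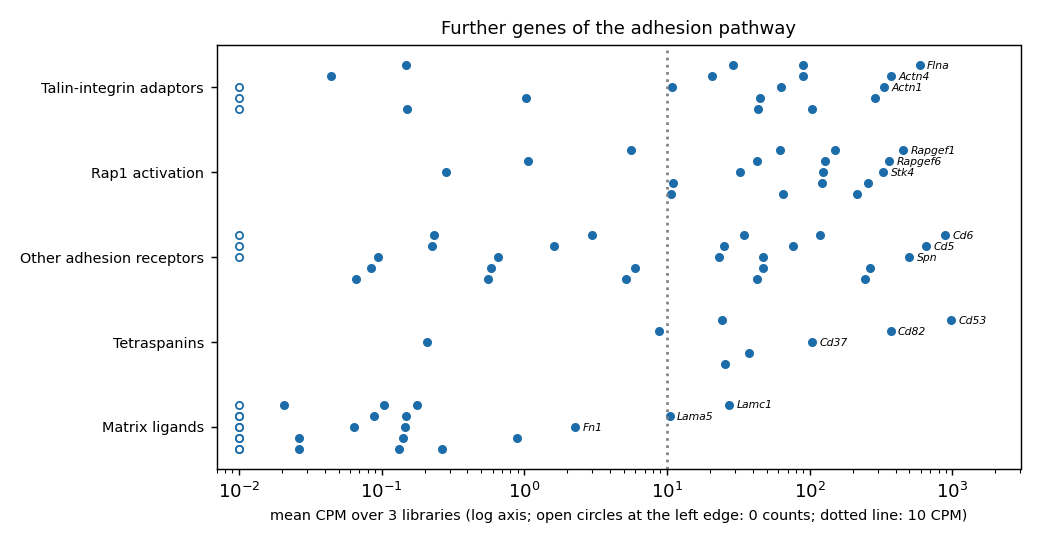
Mean level over 3 libraries of each gene of the 5 further lists, in CPM on a log axis, with the 3 most abundant of each list named; open circles mark 0 counts. Matrix ligands lie almost wholly below 10 CPM, while most Rap1 genes lie above it.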

How the data were processed

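RNA of 3 libraries of 1 group was analysed, sequenced on the Ion Proton system per the labels' protocols. The authors deposited raw counts per gene symbol, with genome build mm10 per the submitters' processing notes. The sources used here give no aligner, counter, gene annotation or strand rule. Effective library sizes came from TMM in edgeR 4.0.16 (R 4.3.3), and CPM, per-kilobase levels, ratios and the chi-square test (scipy 1.17.1, expected count of at least 5 in each library, Benjamini-Hochberg over all genes tested) were computed from the counts. The chi-square test was tested on simulated counts with only counting noise and set changes, without the wider spread of these libraries. Exonic lengths and positions came from GENCODE M21 (GRCm38), where all 40 genes matched, and promoters from RefSeq (GRCm38.p6). Near-identical copies were sought with blastn 2.17.0 at 95% identity over at least 100 bases. The genes and lists were chosen with earlier results of these data known. Every one of the 40 is named, with values per library for those of at least 100 CPM or, from 1 CPM, in a fixed pair, and the 3 most abundant of each further list are named. Another fixed list is not reported here. Protein tails, planned in the rule for what to name, are not analysed here, and promoters, chosen after the levels were seen, are shown instead. Alternatives were DESeq2 1.42.0 size factors, plain totals, other limits and lengths, removal of length and GC trends, and leaving out each replicate.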

Additional observations from a re-analysis of the deposited data

How the results depend on the processing

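No paired analysis was possible because the labels give 1 group. The count of the 40 genes at 10 CPM or more stayed within 1.5 times of 21 under every alternative run. The count of genes that differed between libraries, 18 of 29 tested (42.8% of all genes), was 7 of 30 without replicate 3 (22.8%), 11 of 31 without replicate 1 (24.4%) and 14 of 28 without replicate 2 (41.7%). It was 9 of 29 with the length and GC trends removed (36.9%), and the cause was not tested. It was 17 of 29 with DESeq2 size factors (42.5%), 20 of 30 with plain totals (47.1%) and 13 of 29 at a threshold of 0.01 (33.6%). It was 17 of 38 with no filter (27.6%) and 18 of 27 with expected counts of 20 or more (50.4%). Of the ratios, Cd47 over Cd44 was -0.016 without replicate 2 and 0.054 without replicate 3, against 0.022. Without length scaling, chosen after seeing the data, it was -0.089 and Cd44 over Selplg was 0.52, by construction, since the genes differ in length. The means of the other ratios kept their sign under every alternative run, though Itga4 over Itgb7 was near 0 without length scaling, and 9 of 20 moved by over 1.5 times with another length, as given beside them. Coding length came from the annotation, chosen after seeing the data, and coding length from a table of proteins was not run. Scaling factors cancel within a ratio. Of the 40 levels, those of Fyb and Itgb2 without replicate 1, and of Skap1 and Itgb2 without replicate 3, moved by more than their SD. The 13 genes under 1 CPM rest on at most 14 counts per library, so their order was not detectable at this depth.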
